A study of Mus musculus with 4 samples.

Results

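Hemoglobin and red cell genes were followed through 4 RNA libraries of newborn mouse cortex. The set holds 9 of the 55414 genes in the deposited table, picked by gene symbol: the adult alpha globins Hba-a1 and Hba-a2, the adult beta globins Hbb-bs and Hbb-bt, the embryonic globins Hba-x, Hbb-y and Hbb-bh1, the heme enzyme gene Alas2 and the anion exchanger gene Slc4a1. All 4 libraries came from the cerebral cortex of C57BL/6J mice on postnatal day 1, and both groups carried floxed alleles of Mkk7, a kinase that activates JNK. The 2 libraries labelled Control (replicates 2 and 3) had the genotype Mkk7flox/flox, and the 2 labelled cKO (replicates 2 and 3) had Mkk7flox/flox with Emx1-Cre, a driver active in progenitor cells of the dorsal telencephalon, from which cortical excitatory neurons and glia descend. Neither the floxed exons, nor whether each library came from its own animal, nor whether the animals were perfused is given in the labels. All p-values below therefore measure the spread between these libraries, which may be technical in part.

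Hemoglobin is assembled from alpha-type and beta-type globin chains, each of which holds a heme group that binds oxygen. Embryonic red cells from the yolk sac use zeta, epsilon-y and beta-h1 chains, and the definitive red cells made in the fetal liver and later in the bone marrow switch to the adult chains. Red cells of mammals lose their nuclei but the youngest of them, the reticulocytes, still carry globin RNA, so a tissue with blood in its vessels yields globin reads. Alas2 encodes the erythroid form of the enzyme that starts heme synthesis. Slc4a1 encodes band 3, the anion exchanger of the red cell membrane.

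Both adult pairs were nearly identical in sequence, which bears on every value below. In the GENCODE M21 transcripts (GRCm38), the coding sequences of Hba-a1 and Hba-a2, each 429 bases long, differed at 1 base, C381T, and those of Hbb-bs and Hbb-bt, each 444 bases long, also differed at 1 base, C417T (positions counted from 1 at the start codon; the first base belongs to the gene named first). The stretches around these bases are shown because they are the only coding bases that tell the copies apart; the capital marks the base that differs.
Hba-a1, coding bases 351 to 401: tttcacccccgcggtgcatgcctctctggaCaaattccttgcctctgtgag
Hba-a2, coding bases 351 to 401: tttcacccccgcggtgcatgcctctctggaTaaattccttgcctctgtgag
Hbb-bs, coding bases 387 to 437: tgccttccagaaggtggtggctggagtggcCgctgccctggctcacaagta
Hbb-bt, coding bases 387 to 437: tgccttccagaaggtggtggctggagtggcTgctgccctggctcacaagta
Of all stretches of 100 bases in the main Hba-a1 transcript, 56.5% also occurred in that of Hba-a2, and 74.5% the other way round. For Hbb-bs and Hbb-bt the shares were 62.6% and 54.8%. By contrast, the embryonic genes shared no stretch of 50 bases with their adult relatives: the coding identity was 62.0% between Hba-a1 and Hba-x, 74.3% between Hbb-bs and Hbb-y and 74.1% between Hbb-bs and Hbb-bh1.

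The deposited counts were read with this likeness in view. The estimated counts of Hba-a1, Hba-a2, Hbb-bs and Hbb-bt were not whole in any library, whereas the sum of Hba-a1 and Hba-a2 and the sum of Hbb-bs and Hbb-bt were whole in all 4 libraries, within 0.005 of an integer. In Control 2, for example, Hba-a1 had 15557.08 counts and Hba-a2 14746.92, which add up to 30304. Each pair's total was thus whole, while the split inside a pair was an estimate. Fractional counts were not particular to the near-identical pairs, since those of Alas2 were not whole in any library either.

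The alpha copies were also nearly identical upstream of their start sites, and the beta copies were not. Promoter sequence from RefSeq (GRCm38.p6) was at hand for 7 of the 9 genes, all but Hbb-bh1 and Slc4a1. Within the 250 bases before their start sites, Hba-a1 and Hba-a2 shared an unbroken run of 247 bases, against 14 for Hbb-bs and Hbb-bt. The 120 bases before the start of 1 alpha and 1 beta gene are shown because these genes moved together in the libraries; capitals mark matches, on the strand shown, to 3 of the 4 motifs described after them.
Hba-a2, chr11:32296372-32296491, plus strand: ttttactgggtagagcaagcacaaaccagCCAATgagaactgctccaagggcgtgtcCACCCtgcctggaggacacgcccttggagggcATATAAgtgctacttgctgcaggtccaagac
Hbb-bs, chr7:103827929-103828048, minus strand: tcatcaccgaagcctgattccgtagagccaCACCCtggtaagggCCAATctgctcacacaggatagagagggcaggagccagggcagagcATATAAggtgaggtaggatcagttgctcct
CCAAT is the motif of the factor NF-Y, CACCC that of Krüppel-like factors such as the erythroid KLF1, ATATAA a form of the core promoter's TATA box, and GATAA the motif of the GATA family. Searched on both strands, all 4 motifs occurred at least once in the 250 bases before each of Hba-a1, Hba-a2, Hbb-bs and Hbb-bt, and no matches overlapped. In Hba-a2 they began at positions -91 (CCAAT), -63 and -170 (CACCC), -31 (ATATAA) and -185 (GATAA) relative to the start, and in Hbb-bs at -76, -90, -30 and -209. Of 32851 promoters of that length, 33.8% held CCAAT, 52.0% CACCC, 9.1% ATATAA and 22.6% GATAA. Each motif alone thus occurs in many promoters, ATATAA least often. The share of promoters that held all 4 was not counted, so nothing is drawn from their joint occurrence. Alas2 had 3 CACCC matches and 1 GATAA match, with neither CCAAT nor ATATAA. Hbb-y lacked ATATAA and Hba-x lacked CCAAT in this window.

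The libraries held between 19421491 and 22511247 estimated counts, in 21598 to 21929 genes. Map2k7, the gene that encodes MKK7, was no lower under the cKO label: its level was 38.4 and 30.4 CPM for Control, against 47.9 and 48.1 CPM for cKO (log2 fold change 0.48 with SE 0.18, edgeR adjusted p = 0.428). This total over the whole gene includes exons outside any deletion and could not check the labels, on which each direction below rests. CPM are counts scaled to a library of 1000000 after TMM scaling. Xist was at 0 counts in cKO 3 and at 1004.35 to 1218.27 in the other libraries. The Y-linked Ddx3y had 985 counts in cKO 3 and 0 elsewhere. By these counts cKO 3 came from a male and the others from females. The cKO libraries therefore came from different animals, whereas for the Control libraries this is not known. Defining genes of cortical neurons were well detected, with Neurod6 at 479 to 729 CPM. The choroid plexus list, summed, stood at 806.6, 14.96, 361.8 and 10.76 CPM in Control 2, Control 3, cKO 2 and cKO 3, an order that the globins did not follow.

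Adult globins were among the most abundant transcripts of these cortex libraries. Per length, in the authors' length-scaled TPM, Hbb-bs had the highest mean level of the 9 genes at 4746 TPM (lowest 2646, highest 7059), followed by Hba-a2 at 3542 (2295 to 4628), Hba-a1 at 2509 (1674 to 3137) and Hbb-bt at 1068 (671.1 to 1550). Among all genes, Hbb-bs ranked between 3 in cKO 2 and 24 in cKO 3. The ranges of Hbb-bs, Hba-a2 and Hba-a1 overlapped between neighbours, while that of Hbb-bt lay below that of Hba-a1. Within each library the order of the 4 genes was the same. Alas2 followed far below at 15.27 TPM (10.41 to 20.37). Slc4a1 and the embryonic genes had means under 1 TPM.

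**Figure D1:**
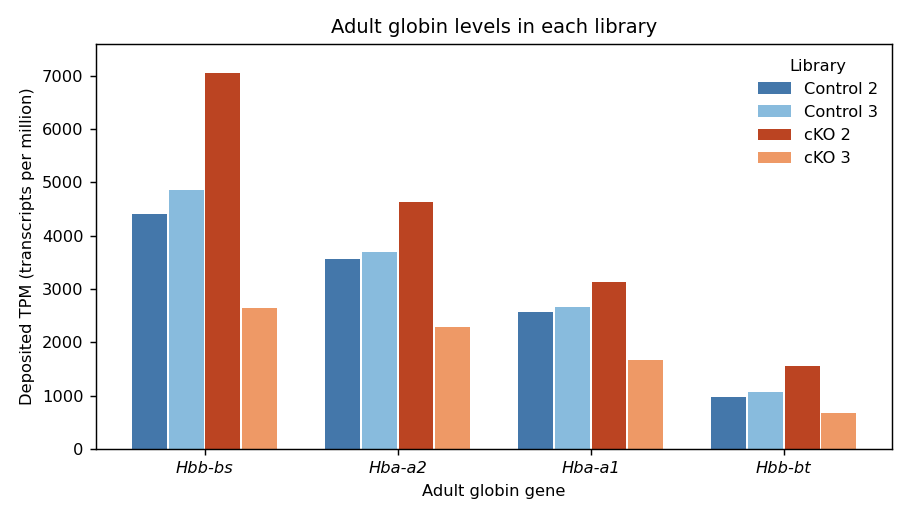
Deposited TPM (y axis, linear from 0) of the 4 adult globin genes (x axis), with 1 bar per library and no error bars because each bar is a single library. For each gene the bar of cKO 2 is the highest and that of cKO 3 the lowest, with both Control libraries between them.

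The order of the alpha copies depended on length. In counts Hba-a1 was above Hba-a2 in 3 of 4 libraries, whereas in TPM Hba-a2 was above Hba-a1 in all 4. The deposited lengths, 699 bases for Hba-a1 and 554 for Hba-a2, equal the lengths of the main GENCODE transcripts. In those transcripts 196 bases precede the coding part in Hba-a1 and 35 in Hba-a2. Hba-a1 (ENSMUSG00000069919.8) lies on chromosome 11 from 32233511 to 32234465 and Hba-a2 (ENSMUSG00000069917.8) from 32246489 to 32247298, both on the plus strand. Hbb-bs (ENSMUSG00000052305.7) lies on chromosome 7 from 103475741 to 103477303 and Hbb-bt (ENSMUSG00000073940.4) from 103461731 to 103463203, both on the minus strand (GRCm39, as deposited).

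The adult alpha globins did not differ by genotype beyond the spread between libraries. For Hba-a1, Control 2 had 791.3 CPM, Control 3 847.8, cKO 2 1084 and cKO 3 493.9. Thus cKO 2 was the highest and cKO 3 the lowest of the 4, and the Control values lay between them. The group means were 819.5 ± 39.99 and 788.8 ± 417.0 CPM (SD, n = 2; log2 fold change -0.06 with SE 0.31, edgeR adjusted p = 0.967). For Hba-a2 the Control libraries had 750.1 and 798.0 CPM, cKO 2 had 1097 and cKO 3 had 471.0. It showed the same arrangement, with a log2 fold change of 0.02 (SE 0.33, edgeR adjusted p = 0.991) whose sign turned when library totals were used without scaling factors.

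The adult beta globins were spread more widely still. Hbb-bs, the major beta gene of these libraries, reached 1199 CPM in Control 2, 1362 in Control 3, 2118 in cKO 2 and 680.9 in cKO 3. Both Control values again fell inside the range of the cKO libraries. The means were 1280 ± 115.3 and 1400 ± 1016 CPM (SD, n = 2; log2 fold change 0.13, SE 0.43, edgeR adjusted p = 0.944). Hbb-bt, the minor beta gene, reached 330.4, 373.3, 577.3 and 214.1 CPM in the same order (log2 fold change 0.17 with SE 0.38, edgeR adjusted p = 0.909).

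Summed, the 4 adult globins took 0.311% of the counts of Control 2 (95% Clopper-Pearson interval 0.308 to 0.313%), 0.336% of Control 3 (0.333 to 0.339%), 0.477% of cKO 2 (0.474 to 0.480%) and 0.189% of cKO 3 (0.187 to 0.191%). These intervals cover counting error only, since reads of an amplified library without molecular identifiers are not independent molecules. None of the intervals overlapped. The group means were 0.323 ± 0.0179% and 0.333 ± 0.204% (SD, n = 2), and the two-sided exact permutation test gave p = 1.0, where 2 against 2 libraries cannot go below 0.333. In bulk tissue, fewer red cells and less globin RNA per red cell cannot be told apart.

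The difference between both cKO libraries was thus larger than any difference between the groups. Scaled, the adult globins summed to 2.62 times as much in cKO 2 as in cKO 3 (95% exact binomial interval 2.59 to 2.65), but to 1.10 times as much in Control 3 as in Control 2 (1.09 to 1.11). The ratio of cKO 2 to cKO 3 was 2.19 for Hba-a1, 2.33 for Hba-a2, 2.70 for Hbb-bt and 3.11 for Hbb-bs. A log2 difference between cKO 2 and cKO 3 at least as large as that of Hbb-bs was found in 5.78% of the 17017 tested genes, and for Hba-a1 in 10.6%. These are comparisons of libraries, not of genotypes. Here cKO 3 was also the only male library, and the part of sex in the globin ratios was not tested.

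Alas2 followed the globins at a much lower level. The gene (ENSMUSG00000025270.14; chromosome X, 149330371 to 149353634) had 302.42, 490.95, 550.62 and 291.6 counts in Control 2, Control 3, cKO 2 and cKO 3, or 15.38, 24.89, 28.96 and 12.75 CPM. Once more cKO 2 was the highest and cKO 3 the lowest (log2 fold change 0.05, SE 0.41, edgeR adjusted p = 0.978). Per 1000 adult globin counts there were 5.01, 7.36, 5.94 and 6.86 counts of Alas2 in the same order of libraries. In that ratio both cKO libraries lay between the Control libraries. Alas2 is X-linked and cKO 3 was the only male library; the part of sex in its value was not tested.

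Slc4a1 did not follow them. The gene (ENSMUSG00000006574.16; chromosome 11, 102239650 to 102257029) had 42 and 30 counts in Control 2 and Control 3, 11 in cKO 2 and 0 in cKO 3, where a count of 0 allows up to 0.131 CPM. It was thus low throughout, at 2.14 and 1.52 CPM against 0.579 CPM in cKO 2, and its groups did not overlap. The log2 fold change was -2.68 (SE 1.32, edgeR adjusted p = 0.515) and did not pass the test. Its size depended on the fit, with -3.41 under a replicate block, -4.08 with limma-voom, -8.25 without cKO 2 (which rests on the 0 counts of cKO 3) and -1.65 without cKO 3. It was the only 1 of the 6 tested members whose groups did not overlap, a state shared by 44.1% of all tested genes.

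The embryonic globins were at or near 0. Hbb-y, which encodes the epsilon-y chain (chromosome 7, 103500956 to 103502423), had 1, 2, 0 and 1 counts in Control 2, Control 3, cKO 2 and cKO 3. Hbb-bh1, for the beta-h1 chain, had 1 count in Control 3 and 0 elsewhere. Hba-x, for the zeta chain (chromosome 11, 32226400 to 32228116), had 1 count in Control 3, 6 in cKO 2 and 0 in the others. Together they gave 12 of 262292 globin counts, or 0.00458% (95% Clopper-Pearson interval 0.00236 to 0.00799%). By library the share was 0.00166%, 0.00600%, 0.00647% and 0.00235% in the same order, with intervals that all overlapped. These 3 genes did not pass the filter on low counts and have no fold change here.

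Across the set, none of the 6 tested members passed the threshold of 0.05 in edgeR's quasi-likelihood test, where 0.047% of all 17017 genes passed (0.00588% higher and 0.0411% lower in cKO). None reached an unadjusted p below 0.05 in that fit, as 1862 of all genes did. Among the other edgeR fits on all 4 libraries, only Slc4a1 did so, with a replicate block (unadjusted p = 0.0361) and without a filter (0.0381). For fits that left 1 library in a group, unadjusted p-values are not reported here for any member. DESeq2 called 0 of 6, with 0 at an unadjusted p below 0.05, against 1.09% of all genes (0.47% higher and 0.617% lower). With limma-voom 0 were called and 1, Slc4a1, had an unadjusted p below 0.05, where 8 of all genes were called and 1937 had such a p. Fold changes were positive for 4 of the 6 and negative for 2, with a median of 0.03. The arrangement with cKO 2 highest, cKO 3 lowest and both Control libraries between them held for 5 of the 6, and for 9.01% of all tested genes. For the 4 adult globins and Alas2, but not for Slc4a1, the sign of the fold change depended on which cKO library was in the fit. Without cKO 2, Hbb-bs was at -0.91 and Hba-a1 at -0.73; without cKO 3 they were at 0.73 and 0.40. Neither fit called a member (lowest edgeR adjusted p = 0.374 without cKO 2 and 0.335 without cKO 3), and neither called any of the 17017 genes. In both, the cKO group was 1 library, assumed to vary like the Control pair.

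**Figure D2:**
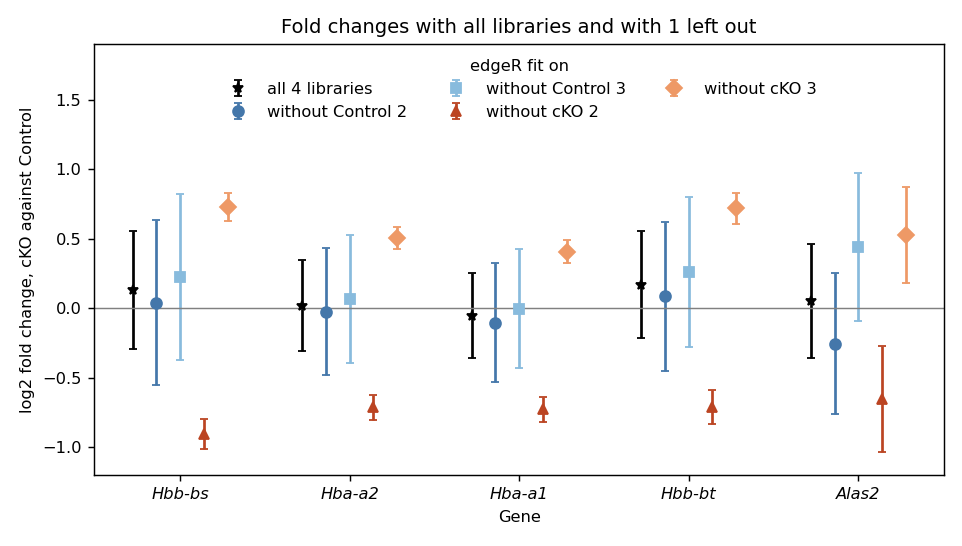
Log2 fold change of cKO against Control (y axis) for the 4 adult globins and Alas2 (x axis), from the edgeR fit on all 4 libraries and on 3 libraries with 1 left out; bars are 1 standard error. With all libraries the 5 values lie between -0.06 and 0.17; without cKO 2 each is negative, from -0.91 to -0.65, and without cKO 3 each is positive, from 0.40 to 0.73. Slc4a1 is not drawn.

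The proportions among the adult globins were compared next. Beta counts (Hbb-bs plus Hbb-bt) stood to alpha counts (Hba-a1 plus Hba-a2) at 0.992 in Control 2 (95% exact binomial interval 0.976 to 1.01), 1.05 in Control 3 (1.04 to 1.07), 1.24 in cKO 2 (1.22 to 1.25) and 0.928 in cKO 3 (0.910 to 0.945). The intervals did not overlap. The 4 libraries had the same order in this ratio as in the summed level of adult globins: cKO 3, Control 2, Control 3, cKO 2. Beta counts enter both measures, so this shared order is partly built in and nothing is drawn from it. Per kilobase of deposited length the ratio was 0.957, 1.02, 1.19 and 0.892 in Control 2, Control 3, cKO 2 and cKO 3, and from TPM 0.881, 0.935, 1.11 and 0.836. Between groups it did not differ beyond the spread of libraries (0.987 ± 0.0428 and 1.04 ± 0.209 per kilobase; SD, n = 2; two-sided exact permutation p = 1.0).

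Inside the pairs, the splits were steadier. Hbb-bt made up 21.6% of adult beta counts in Control 2 (95% Clopper-Pearson interval 21.1 to 22.1%), 21.5% in Control 3 (21.1 to 22.0%) and 21.4% in cKO 2 (21.1 to 21.8%), but 23.9% in cKO 3 (23.3 to 24.5%). Only the interval of cKO 3 stood apart. Hba-a1 made up 51.3%, 51.5%, 49.7% and 51.2% of adult alpha counts in Control 2, Control 3, cKO 2 and cKO 3, and here the interval of cKO 2 (49.2 to 50.2%) lay below the others. For the Hba-a1 share the Control libraries were both above both cKO libraries, which gives the smallest p the design allows (two-sided exact permutation p = 0.333). From the deposited TPM this separation was lost, with shares of 41.93%, 41.89%, 40.4% and 42.18% in the same order (p = 1.0, exact permutation test). For the Hbb-bt share p was 1.0. The authors' method estimated these splits for near-identical copies, so the intervals do not cover the error of that step.

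**Figure D3:**
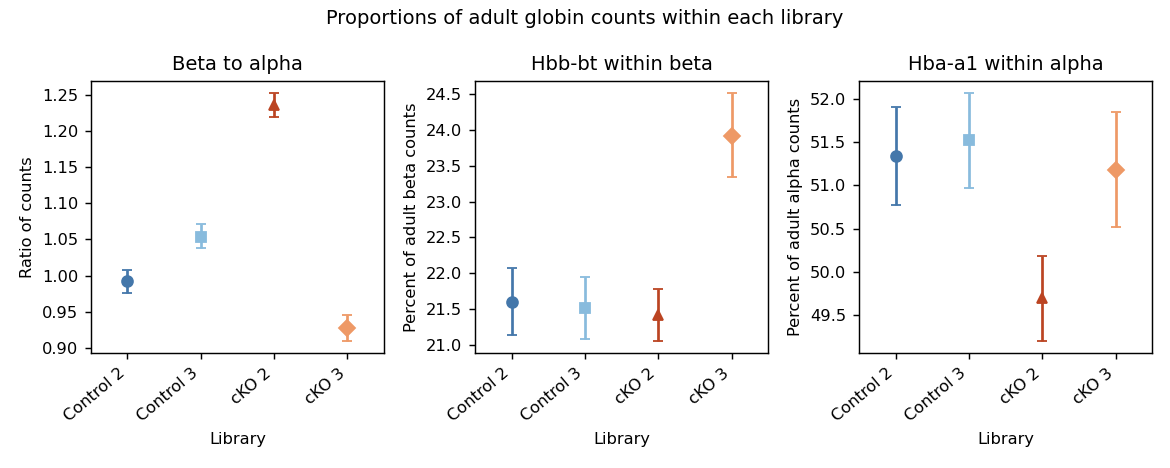
Proportions within each library (x axis): the ratio of adult beta to adult alpha counts, the percent of adult beta counts from Hbb-bt and the percent of adult alpha counts from Hba-a1. Points are single libraries and bars 95% exact binomial intervals; the y axes do not start at 0. The ratio is highest in cKO 2 (1.24) and lowest in cKO 3 (0.928), the Hbb-bt share is highest in cKO 3 (23.9%) and the Hba-a1 share lowest in cKO 2 (49.7%).

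Other genes of the globin loci added little. Hbb-bh0, Hbb-bh2 and Hbb-bh3 were at 0 counts in all libraries. Hbq1a and Hbq1b, theta-type genes next to the alpha globins and close copies of each other, had 26, 23, 14 and 11 counts together in Control 2, Control 3, cKO 2 and cKO 3, with a log2 fold change of -1.89 (SE 0.93, edgeR adjusted p = 0.512) for Hbq1a. Of the globins of other tissues, Mb (myoglobin) was at 0. Ngb, the neuronal globin, had 6.05, 9.08, 3.52 and 7.70 CPM, and Cygb, a globin of fibroblast-like cells and some neurons, 23.3 to 26.5 CPM.

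Heme synthesis beyond Alas2 was not arranged like the globins. The list of 12 genes, Alas2 included, had 5 positive and 7 negative fold changes and a median of -0.03, where all tested genes had a median of 0.00 (rounded). None was called by edgeR. Summed, it stood at 424.1, 497.4, 421.5 and 420.5 CPM in Control 2, Control 3, cKO 2 and cKO 3, so that both cKO libraries were alike. Alas1, the form of the first enzyme that most tissues use, was above Alas2 per length in every library (33.866 to 69.379 TPM). The genes with the smallest p were Uros, for uroporphyrinogen synthase, with 41.4 and 47.6 CPM in the Control libraries against 33.0 and 28.8 CPM in the cKO libraries (log2 fold change -0.52 with SE 0.18, edgeR adjusted p = 0.406), and Alad, Alas1 and Ppox, with log2 fold changes of -0.31, -0.29 and -0.26.

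Genes of the red cell membrane and its skeleton also split. Of 18 listed, 12 were tested, with 5 positive and 7 negative values and a median of -0.12, and edgeR called none. Slc2a1, for the glucose transporter GLUT1, which red cells share with brain endothelium, had 72.5 and 63.9 CPM in the Control libraries against 116 and 105 CPM in the cKO libraries (log2 fold change 0.70 with SE 0.14, edgeR adjusted p = 0.264). DESeq2 called Slc2a1 (adjusted p = 0.00642). Epb41, for protein 4.1, and Sptb, for beta spectrin, had fold changes of 0.49 and -0.84 on the log2 scale (SE 0.13 and 0.26), and neurons express both as well.

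Erythroid transcription factors were nearly absent where they are specific. Gata1 and Gfi1b were at 0 counts in all 4 libraries, which allows at most 0.158 CPM in any of them, and Klf1 had 4, 1, 8 and 0 counts. Of the 11 listed factors, 6 were tested, 3 positive and 3 negative, with none called by edgeR. Lmo2, a partner of GATA factors that endothelium also expresses, had 33.5 and 22.8 CPM in the Control libraries against 18.2 and 15.0 CPM in the cKO libraries (log2 fold change -0.76 with SE 0.26, edgeR adjusted p = 0.399). Bcl11a, which silences embryonic globins in red cells and is also a factor of cortical neurons, was at 166 to 195 CPM with a log2 fold change of -0.16, and Zfpm1 and Ldb1 were at 0.40 and -0.13.

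The cytoplasmic and maturation list had 7 positive and 6 negative values among 13 tested (median 0.10). Fam210b and Bnip3l, genes of mitochondria in maturing red cells and elsewhere, had fold changes of 0.45 and 0.26 on the log2 scale (SE 0.16 and 0.13), Tspo2 of 2.25 (SE 1.37) from at most 26 counts, and Bpgm, for the enzyme that makes 2,3-bisphosphoglycerate, of -0.24 (SE 0.17). Car1 and Hemgn, erythroid genes in this list, were at 0 counts in 3 libraries and had 8 and 9 counts in cKO 3. Trim10, in the same list, had 0, 52, 8 and 0 counts in Control 2, Control 3, cKO 2 and cKO 3. For iron uptake and storage 8 genes were tested, 3 positive and 5 negative (median -0.16). Tfr2, for the transferrin receptor that senses iron, had 8.65 and 8.32 CPM in the Control libraries and 4.42 and 2.19 CPM in the cKO libraries (log2 fold change -1.36 with SE 0.43, edgeR adjusted p = 0.38). Tfrc, for the receptor that takes iron up, Slc11a2 and Fth1 were at -0.36, -0.41 and 0.11.

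Clearance of heme held the smallest p of these lists. Hmox1, for heme oxygenase 1, which breaks heme down and is also induced by oxidative stress, had 8.65, 8.16, 19.7 and 20.6 CPM in Control 2, Control 3, cKO 2 and cKO 3. Both cKO libraries were above both Control libraries and close to each other, unlike the globins. The log2 fold change was 1.26 (SE 0.24, edgeR adjusted p = 0.242), which did not pass in edgeR; DESeq2 called it (adjusted p = 0.0151). Lrp1, for a receptor that takes up heme bound to hemopexin among many ligands, was at 0.45 (SE 0.13), Cd163, for the hemoglobin scavenger receptor of macrophages, at -1.53 (SE 0.82) and Blvrb at 0.24. Hmox1 and Slc2a1 were the only DESeq2 calls among the 58 tested red cell genes outside the set, where DESeq2 called 1.09% of all genes. EdgeR called 0 of these 58, with 9 at an unadjusted p below 0.05, against 1862 of all 17017 genes. Of the 58, 27 were positive and 31 negative, with a median of -0.03. The arrangement with cKO 2 highest and cKO 3 lowest held for 7 of the 58 (12.1%, against 9.01% of all genes).

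Platelet and neutrophil genes were at their highest sum in cKO 2, at low levels. The 8 platelet genes summed to 20.32, 24.13, 39.27 and 24.56 CPM in Control 2, Control 3, cKO 2 and cKO 3, led by Gp1bb and Pf4. The 8 neutrophil genes summed to 3.10, 2.23, 8.78 and 3.37 CPM, with S100a9 at 63 counts in cKO 2 and 17 to 24 elsewhere, and Elane at 0. Lymphocyte genes summed to at most 2.24 CPM, and Cd3e, Cd3g, Cd8a and Ms4a1 were at 0 in all libraries. None of the 9 tested genes of these 3 lists was called by edgeR or DESeq2. An unadjusted p below 0.05 in edgeR was found for 2 of the 4 tested platelet genes and 0 of the 4 tested neutrophil genes. Of all 17017 tested genes, 1862 had such a p. Fold changes were positive for 3 of the 4 platelet genes (median 0.51) and all 4 neutrophil genes (median 0.91). Over all tested genes 8470 were positive. The 1 tested lymphocyte gene was negative. As sums, the platelet and neutrophil lists were not lowest in cKO 3, unlike the globins, while the lymphocyte list was (0.437 CPM). The leading platelet genes differed in this. Gp1bb had 8.22, 9.98, 20.2 and 12.8 CPM in Control 2, Control 3, cKO 2 and cKO 3. Pf4 had 10.1, 11.7, 15.5 and 9.1 CPM in the same order, arranged like the globins.

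As sums over each list, endothelial, pericyte, meningeal and microglial markers varied less than the globins. Some single genes did not. The microglial Tmem119 had 3.0, 10.5, 12.1 and 6.21 CPM in Control 2, Control 3, cKO 2 and cKO 3. The endothelial Emcn had 2.8, 6.34, 5.05 and 7.22 CPM in the same order. Endothelial genes summed to 288.7, 278.5, 320.7 and 305.5 CPM in Control 2, Control 3, cKO 2 and cKO 3, with 10 of 11 tested genes positive (median 0.28). Cldn5, the highest of them at 90.6 to 105 CPM, was the negative one (-0.11). Pericyte genes summed to 185.2, 186.2, 231.8 and 205.3 CPM, led by Vtn, with 7 of 8 positive (median 0.27). The meningeal genes summed to 344.2, 415.2, 509.8 and 456.5 CPM, were lowest in Control 2 and were positive for 8 of 10 (median 0.32). Microglial genes, at 171.9, 197.4, 179.9 and 135.9 CPM, were lowest in cKO 3 and were negative for 8 of 9 (median -0.19). None of the genes of these 4 lists was called by edgeR or DESeq2. In edgeR 1 of 11 endothelial and 3 of 10 meningeal genes had an unadjusted p below 0.05, against 1862 of all 17017 genes. Fold changes were positive for 8470 of all 17017 genes. The part of vessel content, dissection, blood content and sex in the globin values was not tested.

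**Figure D4:**
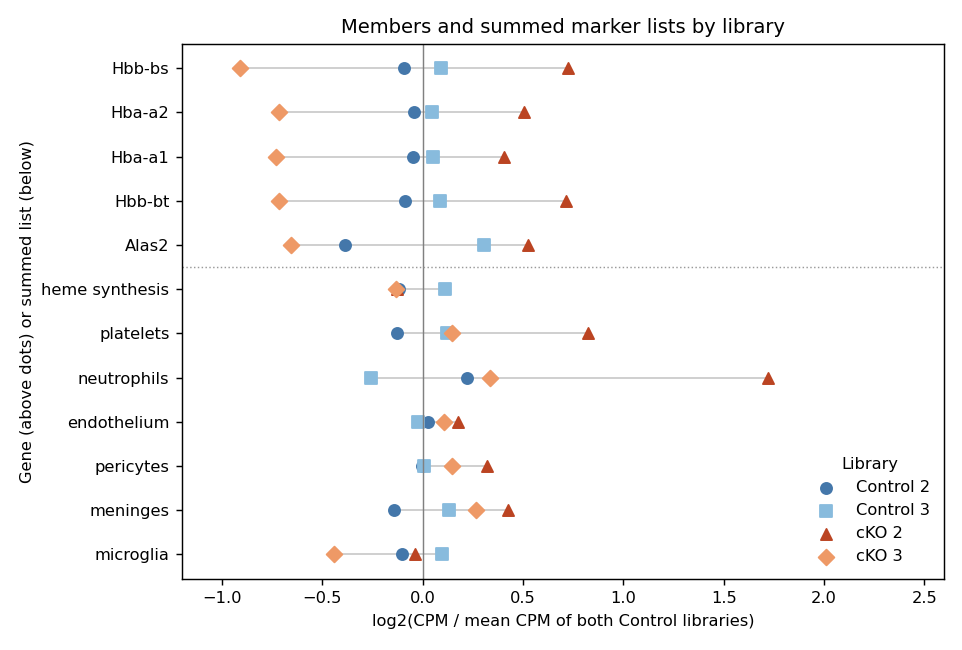
Log2 of the CPM relative to the mean of both Control libraries (x axis) for the adult globins, Alas2 and 7 summed marker lists (y axis); each symbol is 1 library. The 5 genes at the top have cKO 3 on the left and cKO 2 on the right with the Control libraries between, while endothelial, pericyte and meningeal sums stay within a narrower range and platelet and neutrophil sums stand out in cKO 2. The heme synthesis list holds Alas2.

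Likeness to the adult globins over the 4 libraries was measured as the distance between log2 CPM values, centred over the 4 libraries, and the mean profile of the adult globins. The adult globins make up that mean, so their own distances are short by construction and are given for scale only. They lay at 0.103 (Hba-a2), 0.109 (Hbb-bt), 0.175 (Hba-a1) and 0.202 (Hbb-bs), Alas2 at 0.418 and Slc4a1 at 3.00. Among 13593 other genes with a mean of at least 1 CPM and no predicted symbol the median distance was 1.08, and 105 were as close as Alas2, which is not in the mean. The 10 closest were Upp2 (0.0882), Rn7s1 (0.102), Prune2 (0.125), Trmt44 (0.129), AU021092, Dnai4, Il18bp, Zic2, Mr1 and Spag8 (0.168 to 0.205). Upp2, for a uridine phosphorylase, had 7.32, 8.16, 10.8 and 4.37 CPM in Control 2, Control 3, cKO 2 and cKO 3. All 10 were low, with at most 39.08 CPM in any library (Rn7s1).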

How the data were processed

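Cortex RNA was sequenced from SMART-Seq v4 libraries, per the labels' protocols; this kit does not mark strand. The authors deposited estimated counts and TPM per gene, and the submitters' processing notes name DRAGEN and GRCm39; version, annotation and settings were not given in the sources used here. All 55414 rows named a gene.

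Estimated counts were rounded to whole numbers and fitted for all genes with edgeR 4.0.16 (R 4.3.3): default filter (17017 genes kept), TMM factors of 0.979 to 1.02, quasi-likelihood test, genotype as the only term, Benjamini-Hochberg adjustment over all genes, threshold 0.05. SE is the absolute log2 fold change over the square root of F. On simulated counts for 17017 genes the test found 66 of the 100 genes with a simulated 2-fold change, and 92 of the 100 with a 4-fold change, besides 17 false calls. The changed genes were drawn only from genes above the mean level of Slc4a1, so these rates do not cover Slc4a1. The rates are averages over randomly drawn genes at fitted dispersions. They give no rate for the adult globins, whose SE was 0.31 to 0.43. Libraries of a group were not duplicates (chi-square per degree of freedom 12.8 and 27.7). Ratios were compared with exact permutation tests (scipy 1.17.1). A count of 0 allows up to 3 counts.

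Members and gene lists were chosen with earlier results of these data known. The genes named are the members, up to 4 tested genes with the smallest p of each red cell list, up to 3 of the highest genes of other lists, the 10 closest profiles, and genes at 0 or chosen as examples after their values were seen; some genes of the lists are not reported here by name. Alternatives were RLE, upper-quartile or no scaling, members left out of scaling, other filters, DESeq2 1.42.0, limma-voom (limma 3.58.1), robust shrinkage, a replicate block, summed copies, TPM and leaving out each library.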

Additional observations from a re-analysis of the deposited data

How the results depend on the processing

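None of the 6 tested members was called under any of the 15 alternatives to the edgeR fit (lowest adjusted p 0.335). Over all genes, 8 were called; without a filter 58 (21 higher, 37 lower), with DESeq2 185 (80 higher, 105 lower), and 0 without any 1 library; the cause was not tested. With a replicate block 7 genes were called (6 lower); the labels tie the numbers to no litter or day, and same-numbered libraries did not deviate together (r = 0.0136). Small fold changes turned sign: Hba-a2 to -0.0002 with library totals alone, -0.11 with the block, -0.13 with limma-voom and -0.019 with copies summed; Hbb-bs to -0.089 with the block and -0.12 with limma-voom; Hbb-bt to -0.027 with limma-voom; Alas2 to -0.022 with the block and -0.064 with limma-voom. With 1 library left out, the log2 fold change ran from -0.73 to 0.40 for Hba-a1, -0.71 to 0.50 for Hba-a2, -0.71 to 0.72 for Hbb-bt, -0.91 to 0.73 for Hbb-bs, -0.65 to 0.53 for Alas2 and -8.25 to -1.65 for Slc4a1, whose lowest value, without cKO 2, rests on 0 counts in cKO 3 and is no bound. The log2 difference of cKO and Control ran from -0.77 to 0.56 for the adult globin share, -0.15 to 0.27 for the beta to alpha ratio, -0.0095 to 0.15 for the Hbb-bt share and -0.049 to -0.0068 for the Hba-a1 share; each is lowest and highest without cKO 2 or cKO 3. Depth limits Slc4a1 and the embryonic globins, not the adult globins.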
